A study of Mus musculus with 6 samples.

Results

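The genes described here are the immunoglobulin constant, variable, joining and diversity genes, taken as every row of the deposited table with one of those biotypes and a value above 0 in at least 1 library. They number 193 of the 264 immunoglobulin genes listed, among 56748 listed genes of which 28136 had reads. All 13 constant genes had reads, as did 169 of 218 variable genes, 9 of 14 joining genes and 2 of 19 diversity genes. At the limit of the rule, 24 members had 1 read in all 6 libraries together, and 71 listed genes had none. The members lie in 3 loci, the heavy chain locus Igh on chromosome 12 with 106 of them, the kappa light chain locus Igk on chromosome 6 with 80, and the lambda light chain locus Igl on chromosome 16 with 7.

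An antibody is built from heavy and light chains, and each chain gene is assembled in developing B cells by joining 1 variable and 1 joining segment (in the heavy chain also a diversity segment) ahead of a constant gene. Heavy chains are first made with the mu constant gene Ighm, and class switching later replaces it with a gamma, epsilon or alpha gene. Plasma cells, the end stage of B cells, translate these mRNAs in very large amounts and are known to reside in bone marrow.

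Ribosome profiling reads the stretches of mRNA that ribosomes shield from a nuclease, here fragments of 24 to 36 nt from mouse Lin-c-Kit+ cells that the labels call hematopoietic stem cells. All animals had received 4.5 Gy of ionizing radiation 12 days before, and 3 libraries were made from wild-type mice (WT) and 3 from Mov10 knockouts, which lack an RNA helicase known from RNA silencing. The labels give no age or sex, no design of the knockout allele, and no antibodies for the lineage gate, and they leave it unstated whether each replicate is its own animal, so the p-values may reflect technical variation alone. Levels are normalized reads, that is reads divided by 1 size factor per library, given as mean ± SD over n = 3 libraries.

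The WT libraries held 2260348 to 2499634 reads and the knockout libraries 1118345 to 1352517, so depth and genotype cannot be told apart. A floor of 3 reads, which covers counting error alone, stands for a level between 1.84 and 2.04 in WT and between 4.02 and 4.85 in the knockout. Replicate libraries differed more in the knockout, where the chi-square per gene between library pairs was 6.35 to 7.24 against 1.57 to 2.34 in WT. Mov10 itself had 110, 106 and 104 normalized reads in the WT libraries and 51.0, 89.0 and 46.3 in the knockout (log2 fold change -0.84, limma adjusted p = 0.0598). Footprints depend on the amount of an mRNA and on its translation, and mRNA levels were not analysed here. In these bulk libraries, more cells of a type and more RNA per cell cannot be told apart.

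The comparison of knockout with WT asked which immunoglobulin genes differed in footprints between the genotypes. Footprints of the most abundant heavy chain constant genes, of a group of kappa variable genes and of the lambda variable gene Iglv1 were higher in the knockout. With limma on log2(normalized reads + 1) and Benjamini-Hochberg adjustment over 17114 genes, a gene was called at an adjusted p under 0.05. Of the 193 members, 115 reached the minimum mean of 1 normalized read and were tested, 77 did not, and Igkc was fitted apart. Among the 115, 21 were called higher and 6 lower in the knockout and 88 were not called, while among all genes 21.2% were called, 10.3% higher and 10.9% lower. The median log2 fold change was 0.64 over the tested members and -0.17 over all genes tested. In 32 members every knockout library lay above every WT library and in 9 below, which was so for 16.9% and 22.9% of all genes tested. The 115 include 24 members with a WT mean under 1 and 13 with a knockout mean under 1, which passed the filter through the other genotype, so these counts describe the tested genes and not all members.

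Summed over a gene class, the ratio of knockout to WT was lower for the heavy chain constant and joining genes than for the light chain variable genes. The 8 heavy chain constant genes together held 2918, 2486 and 2570.2 normalized reads in the WT libraries and 5218, 5409 and 5819.9 in the knockout libraries, a ratio of means of 2.06. The 92 heavy chain variable genes summed to 198 ± 16.9 in WT and 461 ± 92.4 in the knockout, 2.33 times as much. The 75 kappa variable genes summed to 217 ± 24.5 and 1122 ± 39.4, a ratio of 5.17. No library of either genotype overlapped the other in these classes. The 2 lambda variable genes went from 11.9 ± 2.15 to 118 ± 15.9, nearly all of it Iglv1. The 4 heavy chain joining genes summed to 240 ± 17.4 in WT and 394 ± 39.3 in the knockout (ratio 1.64). The 4 kappa joining genes, at 28.5 ± 4.02 and 35.4 ± 15.6, overlapped between the genotypes. No test was made on these sums. The most similar gene class, the 64 T cell receptor genes with reads, summed to 86.9 ± 6.26 in WT and 91.6 ± 31.5 in the knockout, with overlapping libraries. Of 14 T cell receptor genes tested, 1 (7.14%) was called higher and 3 (21.4%) lower, against 10.3% and 10.9% of all genes. The difference between the classes was not tested.

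**Figure D1:**
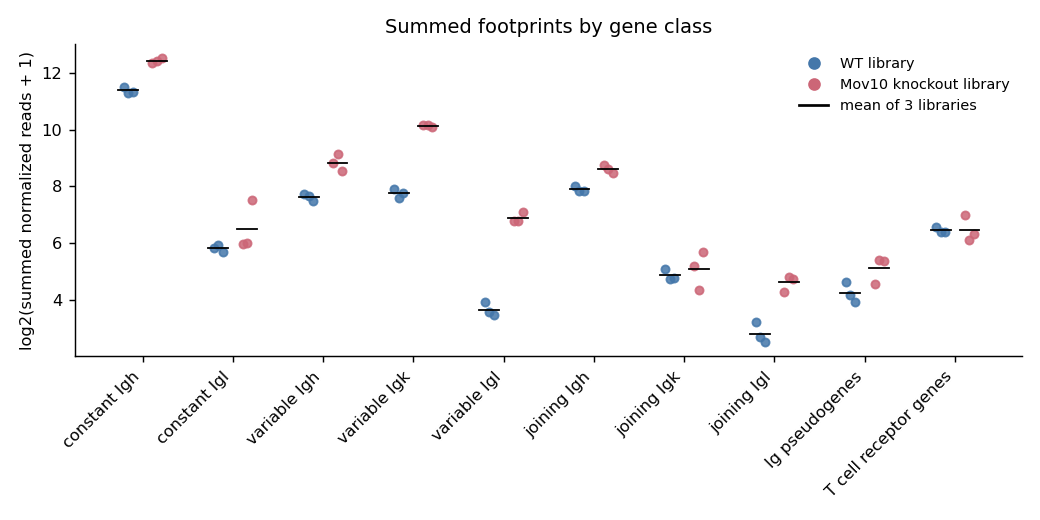
Summed footprints of each gene class as log2(summed normalized reads + 1), 1 point per library (WT blue, Mov10 knockout red) and a bar at the mean of 3 libraries. The knockout points lie above the WT points in the Igh and Igl constant (narrowly in Igl), all variable, and Igh and Igl joining classes, and overlap them in the kappa joining genes, the immunoglobulin pseudogenes and the T cell receptor genes. Igkc is not drawn.

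Among the constant genes, 5 of the 10 tested were called higher and none lower, against the 10.3% and 10.9% of all genes. All 5 are heavy chain genes, which lie together on the minus strand of chromosome 12 (GRCm39). Igha, which encodes the alpha heavy chain of IgA (chr12:113218450-113223856), was the most abundant member. It had 1530.2, 1258 and 1309 normalized reads in the WT libraries and 2757, 2861 and 3134 in the knockout libraries. The groups did not overlap, and the fold was 2.14 (log2 fold change 1.10, SE 0.09, limma adjusted p = 8.89e-05). Ighm, the mu chain of IgM (chr12:113382178-113386350), had 779.7, 760.4 and 752 in WT and 1379, 1386 and 1353 in the knockout. Its replicates were the closest of the constant genes named, and the 1.80-fold difference was far larger than their spread (log2 fold change 0.84, SE 0.06, limma adjusted p = 7.48e-05).

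Of the gamma chain genes, which encode IgG heavy chains, Ighg2b (chr12:113266585-113271553) had 329.8, 236 and 246 normalized reads in the WT libraries and 723, 721 and 803 in the knockout, 2.77-fold higher (log2 fold change 1.48, SE 0.14, limma adjusted p = 0.000225). Ighg2c had 159, 125 and 134 in WT and 217, 296 and 347 in the knockout, a fold of 2.06 (limma adjusted p = 0.00835), and its call was lost without WT replicate 2, without WT replicate 3 and without a variance trend (adjusted p up to 0.0571 over its alternatives). Ighg3 was rare in WT, at 3.25, 6.14 and 2.73, and reached 41.6, 24.3 and 30.4 in the knockout, 7.95-fold higher (limma adjusted p = 0.0106). That call rests on 19 WT reads in all and was lost without WT replicate 1 or 3 (adjusted p up to 0.0618). Ighg1 did not follow them, with 108, 85.9 and 102 in WT and 83.1, 118 and 132 in the knockout (log2 fold change 0.15, SE 0.22, limma adjusted p = 0.675). Ighd, the delta chain that naive B cells carry beside mu, had 15.4 ± 7.69 and 13.1 ± 10.05 and was not called. Ighe, the epsilon chain of IgE, had 2 reads, both in WT replicate 3, and was not tested.

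Per kilobase of the deposited gene length, Igha and Ighm had mean levels of 512 and 405 normalized reads in the WT libraries and 1094 and 728 in the knockout. Ighg2b and Ighg2c followed at 101 and 105 per kilobase in WT and 279.7 and 216 in the knockout, while Ighg1 was at 38.1 and 42.8 and Ighd at 8.12 and 6.90. The order of Igha, Ighm, then the gamma 2 genes was thus the same in both genotypes. Igha held 51.3% ± 0.984 of the heavy chain constant reads of a library in WT and 53.2% ± 0.569 in the knockout. The share of Ighm went from 28.9% ± 1.96 to 25.1% ± 1.65 and that of Ighg2b from 10.1% ± 1.03 to 13.7% ± 0.283, both without overlap of the libraries. Ighg1, whose level overlapped between the genotypes, held 3.71% ± 0.261 and 2.01% ± 0.366, also without overlap, and the share of Ighd, 0.595% ± 0.318 and 0.237% ± 0.180, overlapped. Ighg2c held 5.22% ± 0.221 and 5.20% ± 0.932, and Ighg3 0.155% ± 0.0798 and 0.589% ± 0.183. The switched classes together (gamma, epsilon and alpha) held 70.5% ± 2.19 and 74.7% ± 1.60.

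The lambda constant genes did not pass the test. Iglc1 had 45.4, 52.2 and 40.9 normalized reads in the WT libraries and 53.6, 56.6 and 184 in the knockout, so its mean of 98.0 in the knockout comes mostly from replicate 3 (log2 fold change 0.83, SE 0.45, limma adjusted p = 0.232). Iglc2 had 4.33 ± 0.574 in WT and reads in knockout replicate 2 alone, and Iglc3 had 4.98 ± 1.42 in WT and reads in knockout replicate 1 alone. Iglc4 had 1 read and was not tested. The coding sequences of some constant genes and of variable genes within a family are close to each other, and how the authors assigned reads that match several genes is not given in the sources used here, so a single such gene is less certain than a sum over its family or locus.

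Igkc, the single kappa constant gene (chr6:70703419-70703950), has 2 readings with opposite directions. As headed, it had 135, 129 and 152 normalized reads in the WT columns and 659.6, 563 and 512 in the knockout columns, 4.16-fold higher in the knockout (log2 fold change 2.04, SE 0.13, limma adjusted p = 3.44e-05). These values are not whole numbers of reads of their own library, where the WT columns come to 208.6, 210.9 and 222.98 reads. They are whole numbers of reads of the other genotype's library with that replicate number, 101, 80 and 105 reads for the WT columns and 1016, 917 and 752 for the knockout columns. With the genotypes of the row exchanged, Igkc was 4.16-fold lower in the knockout, at a log2 fold change of -2.04 and an equal adjusted p. The values come out whole only in reads of the other genotype's libraries, and the table carries no statement of which reading is right. Set against the kappa variable genes of the same library, Igkc as headed was 0.645 ± 0.0762 of their sum in WT and 0.515 ± 0.0589 in the knockout, with overlapping libraries. With the row exchanged, the ratios were 2.67 ± 0.270 and 0.124 ± 0.0150.

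**Figure D2:**
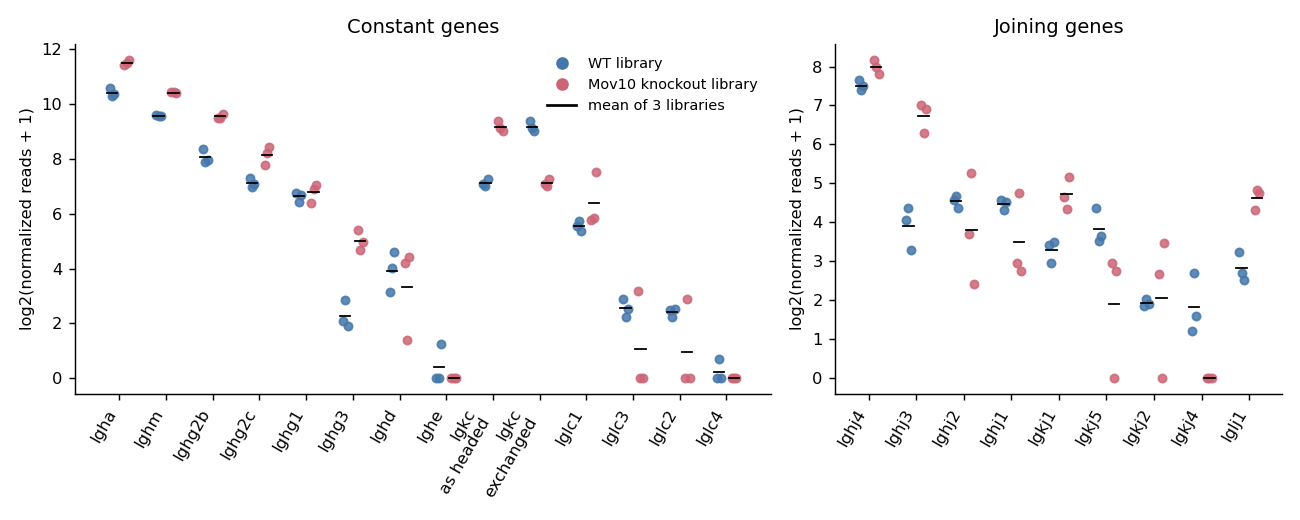
Levels of the 13 constant genes (left) and 9 joining genes (right) as log2(normalized reads + 1), 1 point per library and a bar at the mean of 3 libraries, with Igkc drawn in both readings. Igha, Ighm, Ighg2b, Ighg2c and Ighg3 lie higher in every knockout library, Ighg1 overlaps, and Igkc turns direction with the reading.

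The 9 joining genes are 38 to 100 bases long and so little longer than a few footprints. Of them, 3 (33.3%) were called higher and none lower, against 10.3% and 10.9% of all genes. Ighj4 was the most abundant, with 199, 167 and 179 normalized reads in the WT libraries and 287, 252 and 224 in the knockout, a fold of 1.40 (log2 fold change 0.48, limma adjusted p = 0.0455). It was lost in 11 of 20 alternative fits, among them library totals and the omission of any WT library (adjusted p up to 0.229). Ighj3 differed most, from 15.6, 19.6 and 8.86 in WT to 127, 77.6 and 120.1 in the knockout, 7.38-fold higher (log2 fold change 2.83, SE 0.38, limma adjusted p = 0.00154). Its share of heavy chain joining reads went from 6.13% ± 2.34 to 27.7% ± 7.22 while that of Ighj4 went from 75.7% ± 2.81 to 64.6% ± 1.53, without overlap in either. Ighj1 and Ighj2, at 21.2 ± 1.93 and 22.3 ± 2.42 in WT, had 12.8 ± 11.3 and 17.9 ± 17.2 in the knockout and were not called. The lambda gene Iglj1 had 8.44, 5.52 and 4.77 in WT and 18.8, 27.5 and 26.0 in the knockout, 3.86-fold higher (limma adjusted p = 0.0395), a call lost in 7 of 19 alternative fits, including the omission of any WT library (adjusted p up to 0.155).

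None of the 4 kappa joining genes passed limma's test, 2 had an unadjusted p under 0.05, and edgeR and voom each called 1 higher. Igkj1 had 8.90 ± 1.88 normalized reads in the WT libraries and 26.1 ± 7.84 in the knockout (limma adjusted p = 0.0693), and Igkj5 had 13.8 ± 4.92 and 4.16 ± 3.64 (adjusted p = 0.165). Igkj4 had 14 reads over the WT libraries and none in the knockout (adjusted p = 0.0573), and Igkj2 had 2.80 ± 0.244 and 5.16 ± 5.07. Within kappa joining reads Igkj1 held 31.4% ± 6.36 in WT and 78.4% ± 18.7 in the knockout, and Igkj5 47.6% ± 9.82 and 9.98% ± 9.34, each without overlap, from 12 to 35 reads per knockout library. These 4 genes and Igkc overlap another listed gene, Gm30211, so their reads may be shared with it. Of the diversity genes, Ighd1-1 had 3 reads and Ighd2-3 had 1, all in WT, and neither was tested.

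Among the kappa variable genes, 10 of 43 tested (23.3%) were called higher and 2 (4.65%) lower, against 10.3% and 10.9% of all genes. Their median log2 fold change was 1.09, and 31 were not called. Igkv2-112 had 2.60, 1.23 and 4.09 normalized reads in the WT libraries, 12 reads in all, and 118, 118 and 85.4 in the knockout libraries. The fold was 40.6, the highest of the variable genes called (log2 fold change 4.96, SE 0.48, limma adjusted p = 0.000279). Igkv5-48 had 5.84, 2.45 and 3.41 in WT and 93.9, 100.3 and 94.1 in the knockout, 24.6-fold higher (log2 fold change 4.37, SE 0.43, limma adjusted p = 0.000314). Both were near the floor in every WT library and among the abundant variable genes in every knockout library.

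The 3 most abundant kappa variable genes, by the mean over all 6 libraries, were also called higher. Igkv1-110 had 30.5, 30.7 and 29.98 normalized reads in the WT libraries and 143, 246 and 116 in the knockout, a fold of 5.54 (log2 fold change 2.36, SE 0.30, limma adjusted p = 0.0011). Igkv5-39 had 26.0, 13.5 and 22.5 in WT and 134, 199 and 86.8 in the knockout, 6.78-fold higher (adjusted p = 0.0021 by limma). Igkv1-117 had 24.0, 28.8 and 25.9 in WT and 123, 71.2 and 98.4 in the knockout, 3.72-fold higher (limma adjusted p = 0.00355). Replicate 2 was the highest knockout library for Igkv1-110 and Igkv5-39 and the lowest for Igkv1-117. The other 5 called higher were Igkv6-23, Igkv9-120, Igkv6-32, Igkv6-14 and Igkv8-30, with folds of 11.4, 11.8, 16.5, 11.6 and 6.43, and the call of Igkv8-30 was lost without any WT library (adjusted p up to 0.088). Of the other abundant kappa genes, Igkv15-103 had 18.4 ± 2.79 and 26.2 ± 16.8 and Igkv1-135 had 4.73 ± 1.88 and 27.0 ± 26.9, and neither was called. The 10 genes called higher lie 291 to 2676 kb upstream of Igkc, among tested kappa variable genes that lie 22.3 to 3116 kb from it.

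The 8 kappa families with the highest mean over all 6 libraries were examined, so a family can be among them through its knockout level. Families 2 and 9 were, with WT sums of 5.21 and 5.83 normalized reads. Families 12 and 10, at 10.6 and 8.46 in WT, were not examined. The share of kappa variable reads shifted without overlap of the libraries in 5 of the 8, a count that depends on this choice. Family 5 went from 12.4% ± 2.29 to 21.3% ± 4.72, family 6 from 10.9% ± 1.21 to 19.8% ± 7.28, family 2 from 2.41% ± 0.386 to 9.60% ± 1.47 and family 9 from 2.71% ± 0.254 to 5.50% ± 1.74. Family 15, which is Igkv15-103 alone, went from 8.44% ± 0.350 to 2.34% ± 1.52. The largest family in WT, family 1, held 32.0% ± 3.58 in WT and 26.7% ± 5.37 in the knockout, which overlapped. No test was made on the shares.

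In the lambda locus, Iglv1 (chr16:18903767-18904250) had 11.04, 10.4 and 8.86 normalized reads in the WT libraries and 107, 104 and 136 in the knockout. The groups were far apart, at 11.4-fold (log2 fold change 3.39, SE 0.31, limma adjusted p = 0.000188). Iglv2 had 12 reads in all and was not called. The joining gene Iglj1 lies between Iglv1 and Iglc1, and the 3 genes were 11.4-, 3.86- and 2.12-fold higher in the ratio of means, the last of them not called.

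Among the heavy chain variable genes, 2 of 51 tested (3.92%) were called higher and 4 (7.84%) lower, both below the 10.3% and 10.9% of all genes, with a median log2 fold change of 0.49. Ighv6-6 had 13.6, 11.05 and 10.2 normalized reads in the WT libraries and 96.6, 72.8 and 60.8 in the knockout, 6.59-fold higher (log2 fold change 2.60, SE 0.35, limma adjusted p = 0.00157). Ighv3-6 had 10.4, 7.98 and 10.2 in WT and 79.1, 43.7 and 69.5 in the knockout, 6.73-fold higher (log2 fold change 2.59, SE 0.40, limma adjusted p = 0.00308). Both stood clear of their WT libraries. Ighv1-82, the third by the mean over all 6 libraries, had 12.7 ± 3.14 and 37.6 ± 12.5 and missed the threshold (limma adjusted p = 0.0509), and 8 of its 19 alternative fits called it (adjusted p 0.0157 to 0.185).

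The other 9 of the 12 most abundant heavy chain variable genes were not called, and in 7 of the 9 a single knockout library held most of the normalized knockout reads. Because the order is by the mean over both genotypes, a gene can be among the 12 through high knockout libraries alone, as Ighv1-75 and Ighv1-77 were. Ighv7-1 had 14.8, 0 and 39.1 normalized reads in the knockout against 11.6 ± 1.71 in WT, and Ighv1-75 had 4.02, 38.8 and 4.34 against 1.98 ± 1.18. Ighv1-77 had 18.8, 24.3 and 1.45 in the knockout against 1.08 ± 0.379 in WT. Ighv6-3 was the steadiest, with 13.95 ± 2.75 in WT and 12.0 ± 3.57 in the knockout. The other members of this group were Ighv8-8, Ighv1-81, Ighv1-9, Ighv7-3 and Ighv5-12, with ratios of means of 2.67, 1.25, 2.55, 4.14 and 2.56. The 5 most abundant genes of each library held 31.1% ± 2.39 of the heavy chain variable reads in WT and 52.4% ± 9.22 in the knockout. Ighv6-6, first by the mean over both genotypes though below Ighv6-3 in WT, alone held 5.87% ± 0.496 and 16.9% ± 4.11. Both heavy chain shares were without overlap. Of the kappa variable reads, the 5 most abundant genes of each library held 48.6% ± 1.71 in WT and 55.5% ± 8.81 in the knockout. Igkv1-110 alone held 14.1% ± 1.65 and 14.9% ± 5.62, and the libraries overlapped in both kappa shares.

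**Figure D3:**
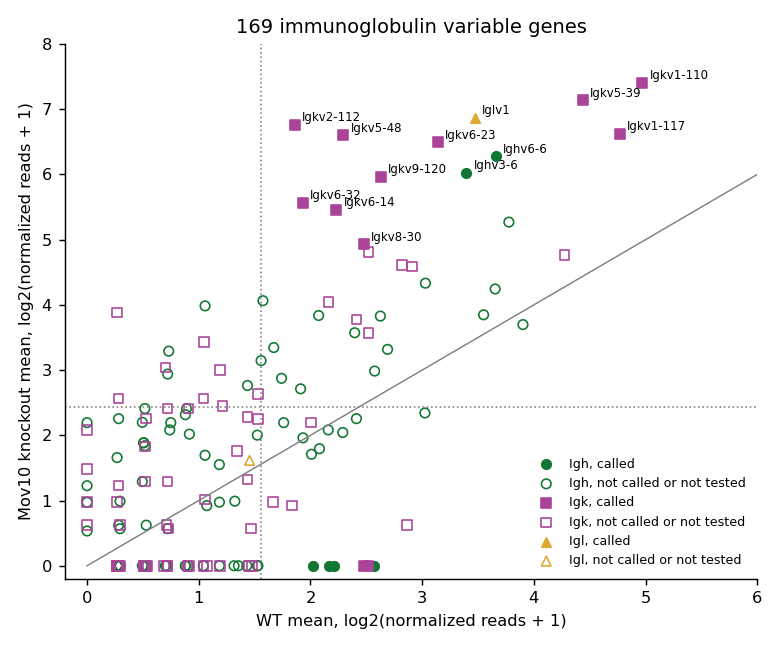
Mean level of the 169 variable genes in WT (x axis) and in the Mov10 knockout (y axis), both as log2(normalized reads + 1), with filled symbols for genes called by limma, the grey line at equal levels and dotted lines at the mean floor of 3 reads (1.94 normalized reads in the WT libraries and 4.41 in the knockout). The 13 genes called higher lie well above the line, and the 6 called lower all lie at 0 on the knockout axis.

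All 6 variable genes called lower (Ighv1-18, Ighv13-2, Ighv1-58, Ighv5-4, Igkv12-46 and Igkv1-88) had no read in any knockout library. Each passed the filter through its WT level alone, and equal knockout values of 0 add no spread to the fit, so these calls are weak. Their WT means were 3.06 to 4.92 normalized reads, close to the mean knockout floor of 4.41, so their fitted fold changes are no measure of size. Against the floor, Ighv1-18 was at least 1.12-fold lower, Igkv12-46 at least 1.07-fold and Igkv1-88 at least 1.04-fold, and the other 3 have no fold. All 6 were among the 60 tested variable genes with a mean of 1 to 5 normalized reads. That is 10% called lower, near the 11.4% of all genes of that abundance. The limma adjusted p-values of the 6 were 0.0135 to 0.0361. DESeq2 called no immunoglobulin gene lower, with 3 lower at an unadjusted p under 0.05, while edgeR's and voom's count filter left these 6 genes out. At this depth the absence of these genes from the knockout was not told apart from a low level.

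More variable genes were detected in WT, with more reads per detected gene in the knockout. At least 1 read was found for 128, 120 and 112 variable genes in the WT libraries and 65, 72 and 68 in the knockout libraries. After thinning every library to the depth of the smallest, the numbers were 105, 95 and 81 in WT and 63, 72 and 66 in the knockout, still without overlap. With a minimum of 3 reads at equal depth the order turned, to 38, 34 and 34 genes in WT and 45, 56 and 45 in the knockout. Over all genes, the thinned libraries detected 17466 to 17713 genes in WT and 15081 to 15707 in the knockout. Of the 169 variable genes, 60 had no read in the knockout, 16 of which had reads in all WT libraries, and 8 had none in WT, of which 0 had reads in all knockout libraries. Thus 109 of 169 had a read in the knockout and 161 in WT. Among all 28131 genes with whole reads, 20956 had a read in the knockout and 24972 in WT, so genes without a knockout read were common throughout the table.

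**Figure D4:**
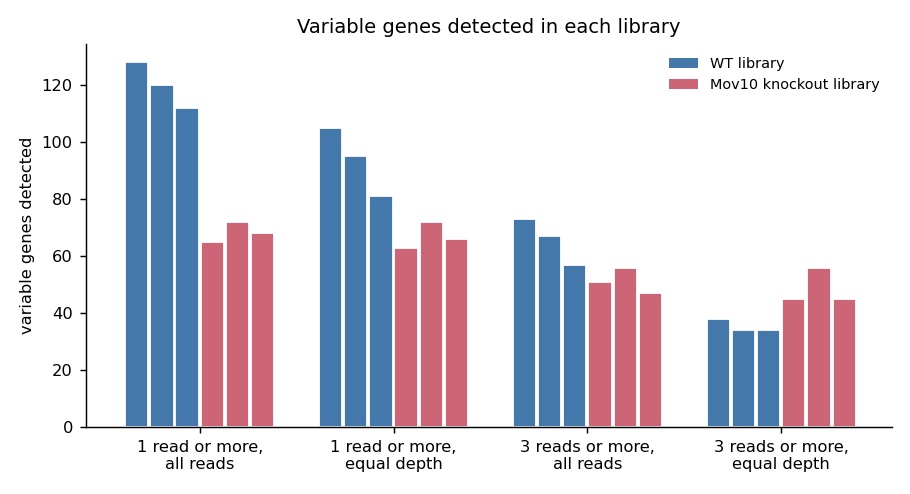
Number of variable genes detected in each library, as bars from 0 (WT blue, Mov10 knockout red), with at least 1 or at least 3 reads, from all reads and after thinning to equal depth. WT libraries detected more genes at 1 read, 81 to 105 against 63 to 72 at equal depth, and fewer at 3 reads and equal depth, 34 to 38 against 45 to 56.

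The reads of a low variable gene also tended to come from a single knockout library. Variable genes with a mean of 1 to 5 thinned reads in a genotype were compared by the ratio of variance to mean over the 3 libraries. It averaged 1.13 in WT (median 1) and 4.81 in the knockout (median 4), where counting error alone gives an average of 1. In the knockout, 28 of 48 such genes (58.3%) had reads in 1 library alone, against 3 of 56 (5.36%) in WT. Over all genes of that abundance the ratio averaged 1.22 in WT (median 1) and 3.66 in the knockout (median 3). Of those genes 40.0% had reads in 1 library alone in the knockout and 5.72% in WT, so a wider spread in the knockout was found throughout the table.

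Among all variable reads, heavy chain genes held 46.4% ± 2.88 in WT and 26.9% ± 3.57 in the knockout, kappa genes 50.8% ± 2.90 and 66.1% ± 2.33, and lambda genes 2.76% ± 0.264 and 6.98% ± 1.40. No library overlapped in any of these shares, which do not depend on the scaling. Light chain variable reads were 1.16 ± 0.130 times the heavy chain variable reads in WT and 2.75 ± 0.498 times in the knockout. Heavy chain variable reads were 0.0746 ± 0.00595 of heavy chain constant reads in WT and 0.0846 ± 0.0196 in the knockout, with overlapping libraries. For the kappa constant gene the direction depends on the reading. Igkc as headed was 0.0525 ± 0.00636 of the heavy chain constant sum in WT and 0.106 ± 0.0193 in the knockout, and with the row exchanged 0.217 ± 0.0155 and 0.0253 ± 0.00122.

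Genes whose products work with immunoglobulin chains were read from a list of 51, of which 49 were tested in the same fit. Of these, 11 (22.4%) were called higher and 5 (10.2%) lower, against 10.3% and 10.9% of all genes, and 33 were not called. The median log2 fold change was 0.31, and -0.17 over all genes tested.

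In the group of the surrogate light chain and the B cell receptor, 2 of 5 tested (40%) were called higher and none lower. Among all genes these shares were 10.3% and 10.9%. Igll1, the lambda 5 part of the surrogate light chain of precursor B cells, had 12.98, 9.20 and 12.3 normalized reads in the WT libraries and 55.0, 74.4 and 75.2 in the knockout, 5.94-fold higher (log2 fold change 2.47, limma adjusted p = 0.00219). Cd79a, a signalling chain of the B cell receptor, was 2.66-fold higher (adjusted p = 0.00577 by limma), while its partner Cd79b had 36.9 ± 7.27 and 23.9 ± 6.92 and was not called. Vpreb1 and Vpreb3 had few reads and were not called, and Vpreb2 was at 0 in all libraries.

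In the group of recombination and class switching, 1 of 10 was called higher and 1 lower. Rag1, the recombinase that cuts variable and joining segments, had 31.2, 29.5 and 24.5 normalized reads in the WT libraries and 127, 226 and 150.5 in the knockout, 5.92-fold higher (log2 fold change 2.49, limma adjusted p = 0.000512). Its partner Rag2 had 3.64 ± 1.58 and 19.0 ± 12.7 and was not called (adjusted p = 0.0979 by limma). Dntt, the polymerase that adds bases at the joints, fell from 110.5 ± 12.95 to 60.7 ± 12.9 (limma adjusted p = 0.0306), a call lost in 6 of 20 alternative fits, among them upper-quartile scaling, no filter on low values and the omission of any WT library (adjusted p up to 0.142).

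In the group of plasma cell and secretion genes, 5 of 14 (35.7%) were called higher and none lower, against 10.3% and 10.9% of all genes. Jchain, which links IgA and IgM into polymers, had 271, 193 and 234 normalized reads in the WT libraries and 699, 823 and 682 in the knockout, 3.16-fold higher (log2 fold change 1.66, SE 0.14, limma adjusted p = 0.000139). Its ratio to Igha and Ighm together was 0.109 ± 0.0116 in WT and 0.172 ± 0.0211 in the knockout, without overlap. Hspa5, the chaperone BiP that binds free heavy chains in the endoplasmic reticulum, rose 2.16-fold, and Hsp90b1, another chaperone there, 1.91-fold, and both are expressed in most cells. Pdia4, another folding gene of this group, went the other way, from 396 ± 24.3 to 313 ± 29.3. It was lower in every knockout library but not called (limma adjusted p = 0.0658). Ell2, an elongation factor of secreted heavy chain mRNA, was 2.47-fold higher and Irf4, a regulator of plasma cells, 2.76-fold, but Ell2 was lost without any WT library (adjusted p up to 0.0667) and Irf4 in 7 of 20 alternative fits (up to 0.109). Other plasma cell genes were not called, among them Xbp1 at 365 ± 12.1 and 359.9 ± 62.2, Sdc1 at 15.7 ± 2.63 and 21.0 ± 9.98, and Prdm1 at 7.62 ± 2.01 and 2.01 ± 1.06.

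Of 8 genes of immunoglobulin transcription, 1 (12.5%) was called higher and 1 (12.5%) lower, near the 10.3% and 10.9% of all genes. Pax5, which sets B cell identity, had 23.4, 21.5 and 18.4 normalized reads in the WT libraries and 75.1, 95.4 and 57.9 in the knockout, 3.61-fold higher (limma adjusted p = 0.0056). Tcf3, which encodes the E2A proteins that bind immunoglobulin enhancers, fell from 264 ± 13.5 to 132 ± 22.5 (log2 fold change -1.003, limma adjusted p = 0.00359). The octamer ATGCAAAT, a known element of immunoglobulin promoters, was searched on both strands of the RefSeq promoters (GRCm38.p6, 250 bases before to 50 after the start). It occurred in 1 of 45 partner promoters, that of Vpreb3, and in 532 of all 27025 (1.97%). No immunoglobulin member had a promoter in that set, so the promoters of the members were not searched.

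Of 12 receptors for immunoglobulins tested, 2 (16.7%) were called higher and 3 (25%) lower, and 7 were not called. Among all genes 10.3% were called higher and 10.9% lower. Fcmr, the receptor for IgM, was 4.64-fold higher (limma adjusted p = 0.0129), and Fcgr3, an activating IgG receptor, 1.79-fold (adjusted p = 0.00579 by limma). Fcgr2b, the inhibitory IgG receptor, fell from 131 ± 4.46 to 71.9 ± 4.99 (limma adjusted p = 0.0108). Fcgr1, the high affinity IgG receptor, fell from 13.9 ± 2.67 to 1.41 ± 1.45, and Fcer1g, the signalling chain that Fc receptors share, from 70.3 ± 9.33 to 7.07 ± 7.39, each with a knockout library at 0. The calls of Fcmr, Fcgr2b, Fcgr1 and Fcer1g were lost without any WT library (adjusted p up to 0.0636, 0.0606, 0.122 and 0.113), and those of Fcgr1 and Fcer1g also with a pseudocount of 0.1.

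**Figure D5:**
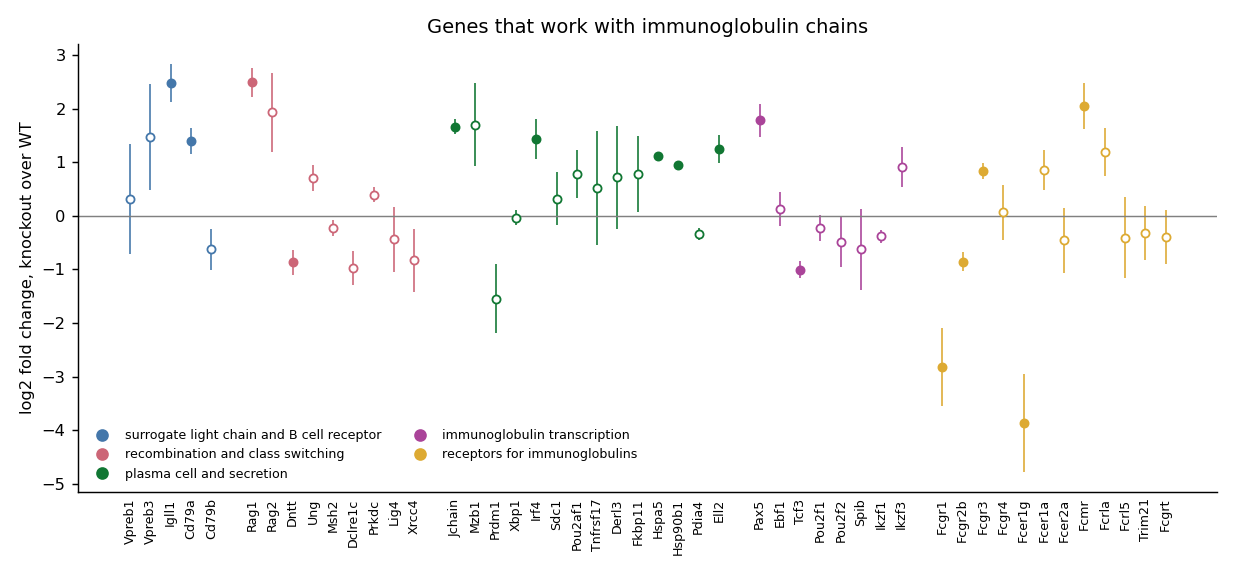
Log2 fold change, knockout over WT, of 48 of the 49 tested genes that work with immunoglobulin chains, coloured by group, with bars of 1 standard error and filled points for genes called by limma. Igll1, Rag1, Jchain, Pax5 and Fcmr lie well above 0, and Fcgr1 and Fcer1g lowest.

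The summed levels of the B lineage and plasma cell markers were higher in every knockout library than in any WT library, though most of these markers were not called. The 12 B lineage markers summed to between 542 and 584 normalized reads across WT libraries and between 852 and 1213 across knockout libraries, and 5 were called higher, among them Cd79a, Cd22, Pax5 and Igll1, none lower, and 7 not called. The 7 plasma cell markers summed to 625 to 695 in WT and 1165 to 1309 in the knockout. Most of that difference came from Jchain alone, at 232 ± 39.0 in WT and 735 ± 77.4 in the knockout, while Xbp1 was at 365 ± 12.1 and 359.9 ± 62.2. Of the 7, 2 were called higher, Jchain and Irf4, and 5 not called, of which Prdm1 was lower in every knockout library (unadjusted p = 0.0415 by limma). Among all genes 10.3% were called higher and 10.9% lower. None of these 19 markers was at 0 in all libraries. Kit, the marker of the gate, was at 1083 to 1115 in WT and 1085 to 1156 in the knockout, and limma, edgeR, DESeq2 and voom called none of the 8 stem and progenitor markers, 1 of which was lower at an unadjusted p under 0.05 in limma and voom. By limma no T cell marker of 11 and no NK cell marker of 5 was called, though 1 and 2 were lower at an unadjusted p under 0.05 and DESeq2 and voom each called 1 T cell marker lower, with T cell sums of 136 to 150.0 in WT and 115 to 152 in the knockout. The part of B lineage or plasma cells in the immunoglobulin differences was not tested. Other cell types also differed, with 5 of 6 erythroid markers called higher and 2 of 8 neutrophil markers higher and 4 lower.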

How the data were processed

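Footprint libraries of Lin-c-Kit+ cells from 3 WT and 3 Mov10 knockout samples were compared by the genotype in the labels. Per the submitters' processing notes the genome build is GRCm39. The aligner, the counting tool, its strand setting and the gene models were not given in the sources used here. The authors deposited signal values that equal gene read counts over a size factor of each library. Divided by the smallest value above 0 of the library, they came out whole, to within 0.05, for 99.9757% of values above 0, and 5 genes, Igkc among them, were not. Those 5 were left out of the main fit, and Igkc was fitted in both readings with them included. The deposited log2 fold changes and p-values, made by the authors with a test that is not stated, and the deposited gene length, which served levels per kilobase, were not otherwise used.

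Where a gene averaged at least 1 normalized read, log2(value + 1) was fitted by genotype in limma 3.58.1 (R 4.3.3), with a variance trend and Benjamini-Hochberg adjustment at 0.05. A fold change in log2 is on that scale and understates low genes. Folds in the text are ratios of means. Reads recovered by dividing by the step were tested with edgeR 4.0.16 (quasi-likelihood, TMM), which called 1801 genes higher and 1412 lower of 10891, and with DESeq2 1.42.0 and limma-voom. Other alternatives were upper-quartile, TMM and total scaling, no variance trend, robust empirical Bayes, a pseudocount of 0.1, no filter or a mean of at least 10 or 50, a stricter threshold of 0.01, a minimum fold of 2, thinning (seed 1), a replicate block and each library left out in turn. The fit was tested on simulated data. Without molecular identifiers, a floor of 3 reads covers counting error alone. Sums, shares and numbers of genes detected were described with no test.

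The members and lists were chosen with earlier results of these data known. Named are all tested constant and joining genes, the 12 most abundant variable genes of Igh and of Igk and those of Igl, the 5 variable genes with the smallest p, all variable genes called lower, and partner and marker genes that were called or at 0. A few genes that this rule or the lists hold are not reported here. The partner genes given as not called were chosen after their values were seen. Sequences of the members were not used here. Python 3.11.15 with numpy 2.4.6, pandas 2.3.3 and matplotlib 3.10.9 served tables and figures.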

Additional observations from a re-analysis of the deposited data

How the results depend on the processing

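The count of 21 immunoglobulin genes higher in the knockout stayed within 1.5 times under every alternative but a mean of at least 50 normalized reads, which tests 13 members and called 11, and all 21 were also called by edgeR, DESeq2 and voom (23, 26 and 23 calls). Leaving out a library gave 16 to 25. Of the 21 genes, 16 stayed called at an adjusted p under 0.05 in every alternative fit that tested them, and Ighg2c, Ighg3, Ighj4, Igkv8-30 and Iglj1 were lost in 2 to 11 fits. An adjusted p under 0.01 kept 17, without Ighg3, Ighj4, Igkv8-30 and Iglj1, and a fold of at least 2 kept 19, without Ighm and Ighj4. The 6 lower calls became 0 at an adjusted p under 0.01, with edgeR, DESeq2 and voom, and with a mean of at least 10 or 50, became 2 after thinning, and were 1 to 11 without a library. Partner genes were called higher 8 to 14 times without a library. The 5 lower partner genes became 1 at an adjusted p under 0.01, 3 at a fold of at least 2, with a pseudocount of 0.1 or no filter, 8 with TMM scaling or library totals, and 1 to 7 without a library.

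Scaling moved the median log2 fold change of all genes from -0.17 to 0.01 (upper quartile) and -0.39 (library totals), and the split of calls from 1757 higher and 1871 lower to 2251 and 1338, and 1285 and 2887. With upper-quartile scaling and library totals the log2 ratio of summed constant genes went from 1.04 to 1.24 and 0.81, of kappa variable genes from 2.37 to 2.57 and 2.14, and of heavy chain joining genes from 0.72 to 0.92 and 0.49. Without a library these ratios spanned 0.99 to 1.11, 2.29 to 2.46 and 0.64 to 0.79. The kappa joining ratio of 0.31 turned to -0.035 without knockout replicate 3 and was at most 0.61. Exchanging the Igkc row turned its log2 fold change to -2.04 and took the constant sum with Igkc to 0.80. The knockout had 51.7 fewer variable genes detected (a difference of -51.7), -26.7 after thinning, -14.3 with at least 3 reads, and 13.3 more with both, a setting chosen after seeing the data. Without the most abundant variable gene of each locus the kappa share was higher by 21.6 points instead of 15.3, and the lambda share, which without Iglv1 rests on Iglv2, changed by -0.30 points instead of 4.22. The causes were not tested beyond these settings.

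Libraries with the same replicate number did not deviate together (correlations across 6307 genes of -0.03, -0.01 and -0.02). With the number as a replicate block, 19 members were called higher and 2 lower, all among the main calls. Of 82 named genes, none was called in opposite directions, and 22 sign changes occurred where neither setting made a call. Thinning was not run for Igkc, whose values are not whole reads of its own libraries. Depth limits the rare variable genes most, since 3 reads stand for over 4 normalized reads in the knockout.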

Other observations

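Immunoglobulin pseudogenes, which carry no intact chain, had reads in 35 of 164 listed genes and summed to 24.0, 17.2 and 14.3 normalized reads in WT and 22.8, 42.1 and 40.5 in the knockout, which overlap. Of 7 tested with limma, none was called, against 21.2% of all genes. Within single libraries, Igha was 1.96, 1.65 and 1.74 times Ighm in WT and 2.00, 2.06 and 2.32 times in the knockout, so the ratio was higher in 3 of 3 knockout libraries. Heavy chain joining reads were 0.0902 ± 0.00204 of heavy chain constant reads in WT and 0.0722 ± 0.0111 in the knockout (n = 3), without overlap, although both sums were higher in the knockout.

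The family sums of variable genes show how unevenly the loci differed. The 5 genes of Igkv family 5 summed to 27.3 ± 8.06 normalized reads in WT libraries and 239.8 ± 60.9 in knockout libraries, the 8 of family 6 to 23.8 ± 4.90 and 220.1 ± 72.6 and the 2 of family 2 to 5.21 ± 0.918 and 108 ± 19.7, while the 12 of family 4 were at 7.54 ± 0.420 and 8.79 ± 8.34. The 3 genes of Igkv family 10 went the other way, from 8.46 ± 3.09 to 0.539 ± 0.934, with 1 read in all knockout libraries. In the heavy chain locus, the 45 genes of Ighv family 1 had 95.8 ± 9.66 and 188 ± 84.6, and the 6 of family 3 had 15.5 ± 0.759 and 71.0 ± 8.79. No test was made on these sums.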
